A study of Mus musculus with 6 samples.

Results

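The annexin genes examined in the mouse brain were *Anxa1*, *Anxa2*, *Anxa3*, *Anxa4*, *Anxa5*, *Anxa6*, *Anxa7* and *Anxa11*. These 8 genes were picked by gene symbol from the 14776 named genes of the array, and each was read by 1 probe. Brains came from male mice of the inbred strain BALB/c that were 12 weeks old and were kept on a normal diet for 6 weeks. As drinking fluid 3 mice had distilled water (controls) and 3 had OPP (oil palm phenolics, the water-soluble phenolic extract of the oil palm fruit) at 1500 ppm gallic acid equivalent. RNA of each brain was hybridized to 1 Illumina MouseRef-8 array, where each transcript is read as the brightness (intensity) of beads coated with its probe. Arrays that stood out in a clustering had been dropped according to the methods, and the errors given here describe the 3 brains per group that remained. Cage mates are not identified. By the methods, the cage size equalled the size of each group before samples were selected for arrays. Each group may therefore have filled 1 cage, and in that case cage and treatment cannot be told apart. How these genes differ between mice given OPP and controls is the question of the comparison.

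Annexins are soluble proteins that bind acidic phospholipids of membranes when calcium rises, through a core of repeated annexin domains. They act in membrane repair, vesicle traffic, the clustering of membrane domains and the control of inflammation. In the brain they are known from endothelial cells, microglia, astrocytes, the lining of the ventricles and infiltrating leukocytes as well as from some neurons. Annexin A2 forms a complex with S100A10 that binds plasminogen and its activator at the cell surface, and annexin A1 is a glucocorticoid-induced ligand of formyl peptide receptors that dampens the recruitment of granulocytes.

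Upstream sequences (the 250 bases before the start of transcription) came from RefSeq on the build GRCm38.p6, in which 6 of the 8 genes had a window. The sequences of *Anxa2*, the gene with the largest difference among the 4 annexin genes tested, *Anxa1*, read above background on 1 array, and *Anxa5*, read on every array with a small difference, are shown to set these genes side by side. Capitals mark matches, sought on either strand, to any of 4 motifs. The AP-1 site was spelled as TGANTCA, bound by Fos and Jun proteins. The TATA box of core promoters was spelled as TATAAA. The GC box, which Sp1 binds, was spelled as GGGCGG, and the remaining motif was the CCAAT box. None of the matches shown overlap each other.
*Anxa2*, chr9:69453433-69453682, plus strand: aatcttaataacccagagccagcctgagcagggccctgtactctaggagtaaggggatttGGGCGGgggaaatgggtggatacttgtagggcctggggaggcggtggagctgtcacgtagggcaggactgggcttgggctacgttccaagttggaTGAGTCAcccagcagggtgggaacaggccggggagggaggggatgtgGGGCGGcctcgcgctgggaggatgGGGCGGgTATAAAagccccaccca
*Anxa1*, chr19:20390672-20390921, minus strand: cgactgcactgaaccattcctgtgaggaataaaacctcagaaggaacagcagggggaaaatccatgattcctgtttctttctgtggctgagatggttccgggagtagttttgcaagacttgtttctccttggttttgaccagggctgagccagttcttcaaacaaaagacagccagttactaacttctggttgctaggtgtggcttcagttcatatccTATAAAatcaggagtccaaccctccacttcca
*Anxa5*, chr3:36475888-36476137, minus strand: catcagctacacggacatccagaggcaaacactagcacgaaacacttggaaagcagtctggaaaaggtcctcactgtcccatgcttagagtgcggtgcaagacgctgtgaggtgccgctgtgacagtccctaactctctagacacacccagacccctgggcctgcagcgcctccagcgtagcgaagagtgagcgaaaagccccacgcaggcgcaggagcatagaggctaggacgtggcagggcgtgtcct
The *Anxa2* window held an AP-1 site at -95 to -89, a TATA box at -17 to -12 and 3 GC boxes that began at -190, -48 and -24. The *Anxa1* window held a TATA box at -32 to -27, and the *Anxa5* window held none of these 4 motifs. Among all 32851 windows of the same length, 6.75% held the AP-1 site, 12.4% the TATA box, 32.7% the GC box and 33.8% the CCAAT box. These matches describe letters and not sites in use.

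Among the 4 annexin genes that could be tested, annexin A2 had the largest difference, with less *Anxa2* transcript in the brains of mice given OPP. The scaled intensity of *Anxa2* was 934, 1215 and 1063 in control replicates 1, 2 and 3 and 625, 875 and 612 in OPP replicates 1, 2 and 3. Every mouse given OPP lay below every control, and OPP replicate 2 lay nearest to the controls. The mean was 1071 ± 141 for the controls and 704 ± 148 with OPP (SD, n = 3 each), a difference of -34.8% as the ratio of geometric means. On the log2 scale the fold change, OPP over control, was -0.62 (standard error 0.16, 95% interval -0.98 to -0.25). limma gave an unadjusted p of 0.00393, which ranked 20 among the 7611 probes tested, and an adjusted p of 0.988, so that *Anxa2* did not pass after adjustment by the method of Benjamini and Hochberg. The exact two-sided permutation test gave p = 0.1, the smallest that 3 brains against 3 allow. Among the probes tested, 5.07% had every OPP array below every control array and 2.1% were lower at an unadjusted p under 0.05. The background-subtracted values deposited by the authors leave less of the array's background in the ratio. On these values the controls had 1.71 times the level of the mice given OPP, as the ratio of arithmetic means.

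The difference in *Anxa2* did not rest on 1 brain. Leaving out each brain in turn gave log2 fold changes from -0.78, without OPP replicate 2, to -0.52, without control replicate 2. Over all 18 alternatives, which include leaving out each brain, the log2 fold change lay between -0.79 and -0.48. The unadjusted p was highest with the methods' t-test, an equal-variance test, at 0.0367. By the methods that test was used for behaviour and real-time PCR, not for the arrays. The lowest adjusted p from limma among the alternatives was 0.244, without control replicate 2. The gap between the groups was narrow on some scales. Without scaling the lowest control read 897 and the highest OPP array 869, and on the authors' values these were 723 and 719.

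**Figure D1:**
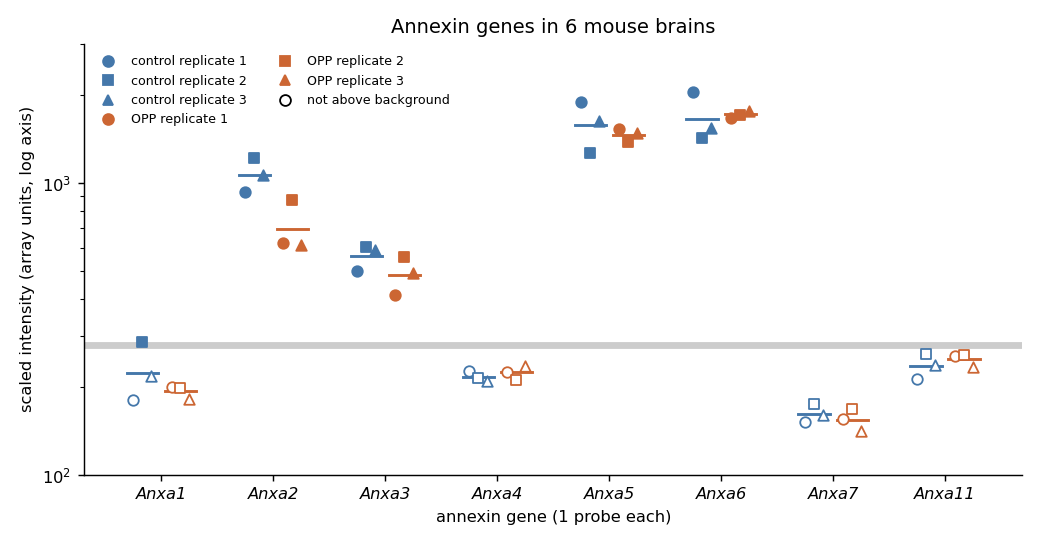
Scaled intensity of each annexin gene on a log axis, for 3 controls (blue) and 3 mice given OPP (orange), with the geometric mean of each group as a line and a grey band at the lowest intensity called above background on the 6 arrays (273 to 284). *Anxa2*, *Anxa3*, *Anxa5* and *Anxa6* lie above the band on all 6 arrays, and *Anxa2* is the gene of these 4 whose groups do not overlap.

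Annexins A3, A5 and A6 were read above background on all 6 arrays and did not pass the test at an unadjusted p of 0.05. Annexin A3 is a small annexin abundant in neutrophils and also made by microglia. The scaled intensity of *Anxa3* was 502, 604 and 588 in the controls, against 414, 557 and 490 with OPP. The groups overlapped, and the order of the 3 controls was that of *Anxa2*, with replicate 2 highest and replicate 1 lowest. Its means were 565 ± 55.2 and 487 ± 71.5 (SD, n = 3 each), and its log2 fold change was -0.22 (standard error 0.13, 95% interval -0.52 to 0.08; exact permutation p = 0.2).

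Annexin A5 binds exposed phosphatidylserine and is the protein used to stain apoptotic cells. The scaled intensity of *Anxa5* was 1901, 1271 and 1627 in the controls, against 1534, 1389 and 1484 with OPP. All 3 mice given OPP lay inside the range of the controls, which was the wider one. Its means were 1600 ± 316 and 1469 ± 73.9 (SD, n = 3 each), and the log2 fold change was -0.10 (standard error 0.15, 95% interval -0.44 to 0.23; exact permutation p = 0.6). Its direction depended on the controls, since the log2 fold change was -0.26 without control replicate 2 and 0.03 without control replicate 1.

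Annexin A6 is the large annexin with a doubled core that organizes cholesterol-rich membranes and the cortical cytoskeleton. The scaled intensity of *Anxa6* was 2055, 1428 and 1549 in the controls, against 1676, 1716 and 1771 with OPP. The OPP values lay between the highest control and the other controls, so the groups overlapped. Its means were 1678 ± 333 and 1721 ± 47.4 (SD, n = 3 each), and the log2 fold change was 0.05 (standard error 0.14, 95% interval -0.26 to 0.37; exact permutation p = 0.8). It was 0.21 without control replicate 1 and -0.05 without control replicate 2. The intervals of *Anxa5* and *Anxa6* leave room for a change of either sign.

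Of the 4 annexin genes tested, 1 was lower and 0 were higher at an unadjusted p under 0.05, against 3.88% of all probes tested in either direction. At an adjusted p under 0.05 the count was 0 of 4, against 0.0131% of the probes. The median log2 fold change of the 4 was -0.16, and over all probes tested it was 0.000284.

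**Figure D2:**
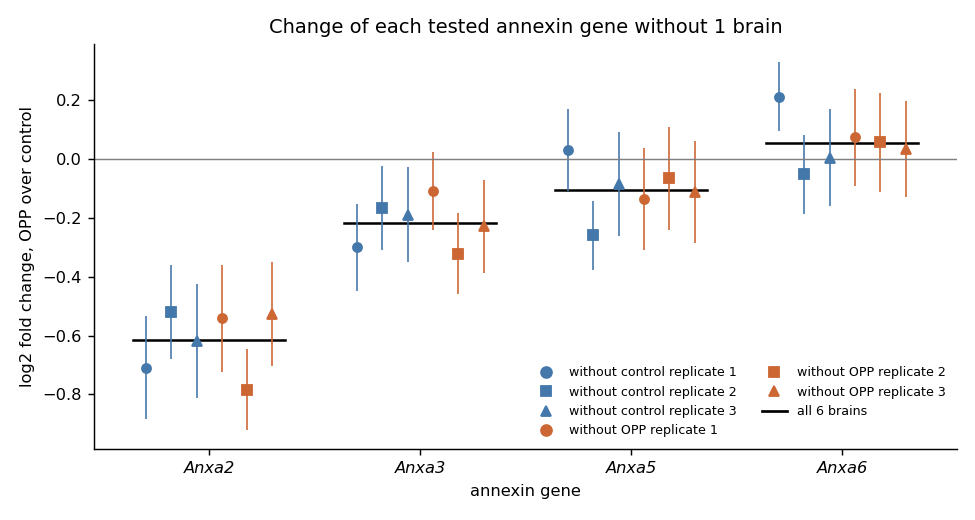
Log2 fold change, OPP over control, of *Anxa2*, *Anxa3*, *Anxa5* and *Anxa6* with all 6 brains (black line) and without each brain in turn (points, bars are the standard error from limma). *Anxa2* stays between -0.78 and -0.52, while *Anxa5* and *Anxa6* each cross 0.

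The other 4 members gave no measured comparison. The intensity of *Anxa1*, which encodes the formyl peptide receptor ligand annexin A1, was 181, 286 and 218 in the controls, against 201, 198 and 183 with OPP. It was above background in control replicate 2 alone, one of 175 probes for which that held, and was not tested. *Anxa4*, which encodes an annexin of epithelial membranes, read 227, 215 and 209 in the controls, against 226, 212 and 236 with OPP. *Anxa7*, which encodes synexin, read 151, 174 and 161 in the controls, against 156, 168 and 141 with OPP. *Anxa11*, whose product tethers RNA granules to lysosomes, read 213, 259 and 239 in the controls, against 256, 258 and 234 with OPP. *Anxa4*, *Anxa7* and *Anxa11* were not well above background on any array, so that no direction can be read from these values. Thus 4 of 8 members were tested, while 31.6% of all probes were. The annexin genes outside the choice, *Anxa8*, *Anxa9*, *Anxa10* and *Anxa13*, were not well above background on any array either. A probe at background does not show that its gene is silent, because the probes of *Snap25*, *Nefl*, *Gfap* and *Slc1a2*, which neurons and astrocytes express strongly, were also at background on all 6 arrays.

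Genes whose products bind annexins or act with them were compared in the same fit. Of 17 such genes 14 had a probe (*Ahnak*, *Fpr1* and *Fpr3* had none with that symbol) and 7 were tested, of which 1 was lower and 0 were higher at an unadjusted p under 0.05 (3.88% of all probes tested in either direction, 2.1% lower). Their median log2 fold change was -0.04, and 7 partners with a probe were not tested. *S100a10*, which encodes the S100 partner of annexin A2, read 369, 350 and 375 in the controls, against 311, 344 and 452 with OPP. Its groups overlapped and the lowest and the highest value both came from mice given OPP. Its log2 fold change was 0.00 (standard error 0.14, 95% interval -0.32 to 0.32). The change of *Anxa2* minus that of *S100a10* was -0.62 on the log2 scale (standard error 0.30, 95% interval -1.44 to 0.21; exact permutation p = 0.2), so that a difference between both genes in their response was not shown.

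*Fpr2*, which encodes a formyl peptide receptor that annexin A1 can engage, was the partner lower at an unadjusted p under 0.05, a call that rested on the choice of brains and test. Its scaled intensity was 363, 1269 and 370 in the controls, against 250, 301 and 279 with OPP. The groups did not overlap, control replicate 2 stood far above all other arrays, and OPP replicate 1 was not above background. Its log2 fold change was -1.01 (standard error 0.41, unadjusted p = 0.036 and adjusted p = 0.988 from limma), and it was -0.41 without control replicate 2 (unadjusted p = 0.0055 and adjusted p = 0.205 from limma). The unadjusted p was over 0.05 with array weights (log2 fold change -0.56), with the methods' t-test and without any one of the mice given OPP (-1.07 to -0.94). *S100a6*, which encodes calcyclin, a ligand of annexin A2 and annexin A11, showed the same brain apart. It read 1157, 2938 and 1320 in the controls, against 1295, 1187 and 1094 with OPP. Its log2 fold change was -0.47 (standard error 0.30), and it was -0.05 without control replicate 2. For *Sri*, which encodes sorcin, the calcium-binding partner of annexin A7 and annexin A11, the log2 fold change was -0.09 (standard error 0.10). The Ras regulator *Rasa1*, the plasminogen activator gene *Plat* and the S100 gene *S100a1* had log2 fold changes between -0.04 and 0.02. *S100a11*, whose product binds annexin A1, and *Pla2g4a*, which encodes the cytosolic phospholipase that annexin A1 inhibits, were not above background on any array. The same held for *S100a4*, *Pdcd6*, *Dysf* and *Plg*, while *S100b* was above background on 1 array.

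**Figure D3:**
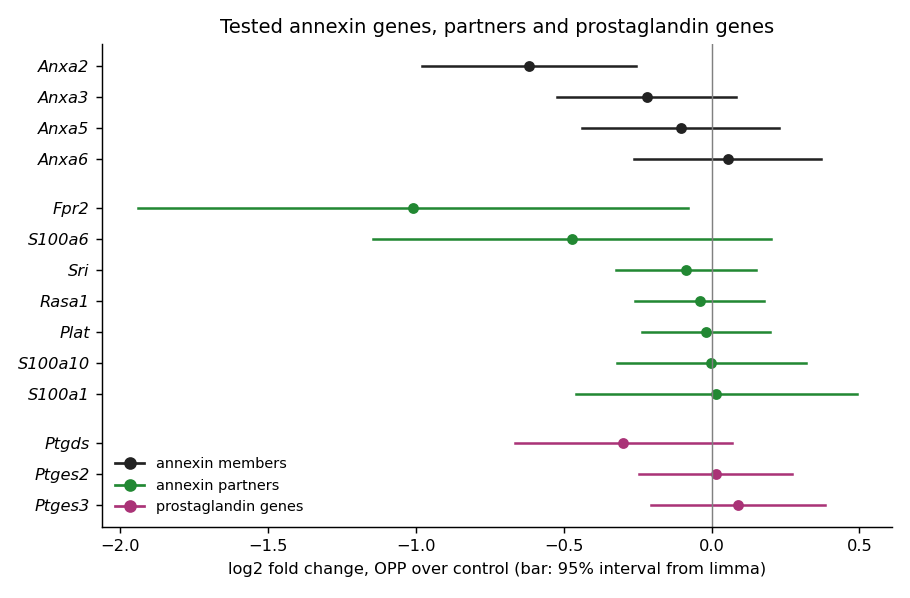
Log2 fold change, OPP over control, of the 4 annexin genes tested (black), 7 partner genes (green) and 3 prostaglandin genes (purple), with the 95% interval from limma (n = 3 each). The intervals of *Anxa2* (-0.98 to -0.25) and *Fpr2* lie below 0 and all others include 0.

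The prostaglandin genes, which act downstream of the cytosolic phospholipase, were mostly too dim to compare. Of 20 such genes 19 had a probe, 15 were not above background on any array, *Ptgis* was above background on 4 arrays without passing the filter, and 3 were tested. Of these, 0 passed at an unadjusted p under 0.05, a count from which nothing can be read for 3 genes where 3.88% of all probes passed. Their median log2 fold change was 0.01. *Ptgds*, which encodes the prostaglandin D synthase of brain, leptomeninges and choroid plexus, read 8630, 10418 and 8882 in the controls, against 8914, 8214 and 5872 with OPP. The groups overlapped and OPP replicate 3 was the lowest array. The log2 fold change was -0.30 (standard error 0.16), and it was -0.12 without OPP replicate 3. The prostaglandin E synthase genes *Ptges3* and *Ptges2* had log2 fold changes of 0.09 and 0.01. Both probes of *Ptgs2*, which encodes the inducible cyclooxygenase, were at background on all 6 arrays.

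Marker genes of other cell types also differed between the arrays, not all in the same direction, and are given as measured. The summed intensity of 11 granulocyte markers was 4284, 32709 and 5341 in control replicates 1, 2 and 3 and 2699, 2869 and 2611 in the mice given OPP. Probes at background add to this sum, and the lowest intensity called above background was 273 to 284 per probe. The OPP sums are therefore mostly background. Of these markers 6 were tested and 5 were lower with OPP at an unadjusted p under 0.05, against 2.1% of all probes tested. *Ltf* was above background on 3 control arrays and 0 OPP arrays, and *S100a9*, *Camp* and *Retnlg* on 3 and 1. A probe that passes the filter through the controls, where it is high, can hardly come out higher with OPP. The count was therefore not read as a result. This limit does not hold for *S100a8*, which was above background on all 6 arrays, while *Lcn2* was so on 5. *S100a8* read 1184, 12849 and 1686 in the controls, against 379, 468 and 308 with OPP. Its log2 fold change was -2.96 (standard error 0.73, unadjusted p = 0.00282 and adjusted p = 0.988 from limma). *Ngp*, *Mpo*, *Elane* and *Mmp9* were above background in 1 control alone, and *Mmp8* on no array. The brain richest in granulocyte markers, control replicate 2, was also the highest for *Anxa1*, *Anxa2*, *Anxa3*, *Fpr2* and *S100a6*. It was the lowest for *Anxa5* and *Anxa6*. Without it the log2 fold change of *Anxa2* was -0.52, with an unadjusted p under 0.05 from limma. Granulocyte markers still differed between the groups without this brain, as *S100a8* read 1184 and 1686 in control replicates 1 and 3. That fit therefore cannot tell whether granulocytes had a part in the *Anxa2* values.

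The summed intensity of 11 endothelial and mural markers was 7386, 7664 and 8380 in the controls, against 6794, 6628 and 6855 with OPP, without overlap. This sum is carried mostly by the brightest probes. Of the 6 markers tested, 1 (*Esam*) had every OPP array below every control, which held for 5.07% of all probes tested. The groups overlapped for *Vwf* and *Slc2a1*. Of 6 tested, *Vwf*, which encodes von Willebrand factor, *Esam*, which encodes an endothelial adhesion molecule, and *Slc2a1*, which encodes the glucose transporter of the blood-brain barrier, were lower at an unadjusted p under 0.05 (2.1% of all probes). Their log2 fold changes were -0.50, -0.30 and -0.32 (standard errors 0.17, 0.10 and 0.14). The other 3 tested did not pass, with log2 fold changes of -0.15 for *Pdgfrb*, -0.11 for *Flt1* and 0.03 for *Pecam1*. *Tek*, *Kdr*, *Acta2* and *Tagln* were at background on all 6 arrays. The 5 meningeal fibroblast markers tested all had log2 fold changes below 0, with 0 passing at an unadjusted p under 0.05. The 6 microglial markers tested had a median log2 fold change of 0.09, and 0 passed. Markers of several other cell types also lay below 0 without passing, with 6 of 6 oligodendrocyte genes (median log2 fold change -0.22), 4 of 4 astrocyte genes (-0.12) and 3 of 3 erythroid genes (-0.36), while the median of the meningeal genes was -0.18. Above 0 without passing were 3 of 5 neuron genes (median 0.09), 2 of 2 ependymal genes (0.10) and 5 of 6 microglial genes. Over all 7611 probes tested, 3797 lay below 0. Of 3 choroid plexus markers tested, *Ttr* had a log2 fold change of 0.25 and *Clic6* one of -0.17, and neither passed. *Aqp1*, which encodes a water channel, was lower at an unadjusted p under 0.05 (log2 fold change -0.37, adjusted p = 0.988 from limma). Its OPP arrays all lay below every control, as held for 5.07% of all probes tested. The second tested probe of *Aqp1* did not pass (-0.19). The part of these cell types in the annexin values was not tested. In RNA of whole tissue, fewer cells of a type and less RNA per cell cannot be told apart.

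The controls also differed among themselves in genes typical of the cerebellum. The summed intensity of 8 such genes was 13558, 2743 and 9575 in the controls and between 3488 and 5585 in the mice given OPP. Of these genes 3 were tested, all with log2 fold changes below 0 (median -0.45), and 0 passed at an unadjusted p under 0.05. *Anxa5* and *Anxa6* had the same order among the controls as this sum, highest in replicate 1 and lowest in replicate 2. So had the sums of oligodendrocyte, astrocyte and meningeal fibroblast markers. Among the mice given OPP the likeness did not hold. There the cerebellum sum was lowest in replicate 3 (3488), where *Anxa6* was highest (1771). It was highest in OPP replicate 2 (5585), where *Anxa5* was lowest (1389). The part of the region sampled in these values was not tested.

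**Figure D4:**
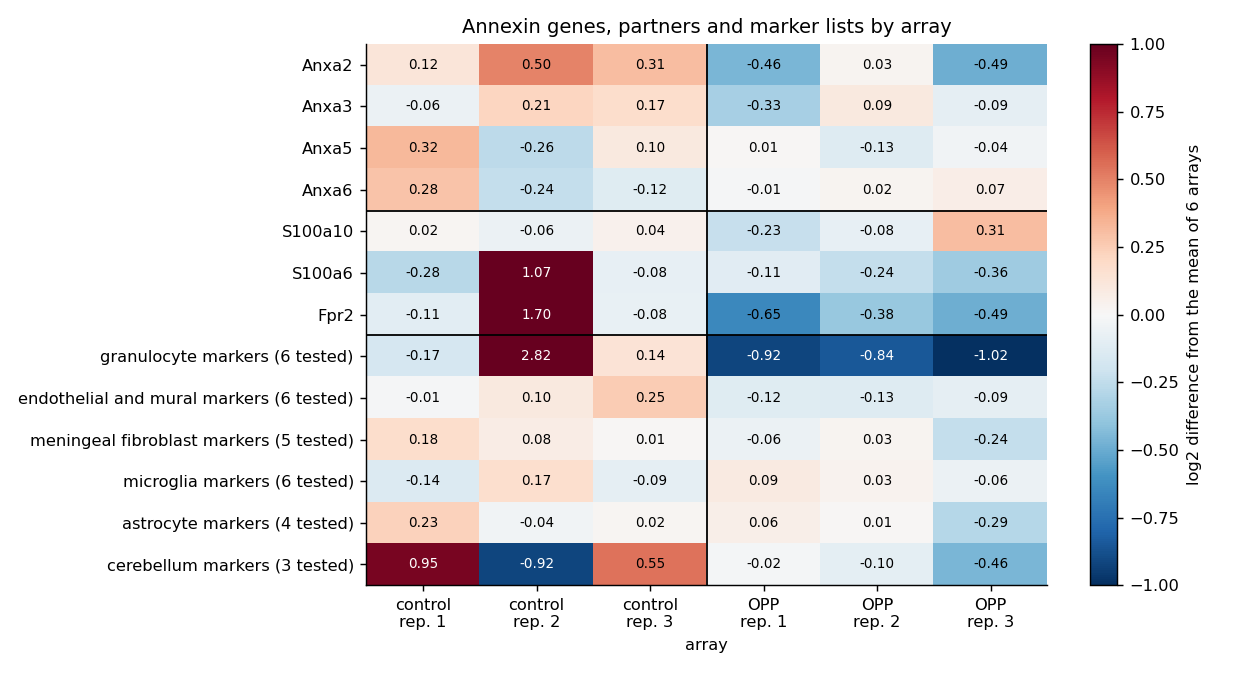
Log2 difference of each annexin gene, partner gene or marker list from its mean over 6 arrays (colours end at -1 and 1; numbers give the full value). Control replicate 2 is the array with the granulocyte markers at 2.82 and *Anxa2* at 0.50, and in the same array *Anxa5* is at -0.26 and *Anxa6* at -0.24.

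The 5 tested genes with a pattern most like *Anxa2* over the 6 arrays were *Tnfrsf1a* (Pearson's r = 0.998), *Mif4gd* (0.997), *Tppp3* (0.982), *Ndufa4* (0.980) and *Grhpr* (0.979). They encode tumour necrosis factor receptor 1, a translation factor with an MIF4G domain, a tubulin-binding protein, a protein of the mitochondrial respiratory chain and glyoxylate reductase. Each was lower in every mouse given OPP than in every control, as were 5.07% of all probes tested. The log2 fold changes were between -0.36 and -0.21, smaller than that of *Anxa2*. *Mif4gd* was above background on 1 array. The 6 points share the difference between groups. The 5 genes were picked for their likeness from those of the 7611 probes tested that had a gene symbol. The correlations and the lack of overlap are therefore a description.

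As to the arrays, 7442 to 7903 probes were above background and the median intensity was 205 to 245, with scaling factors of 0.882 to 1.04. Pearson correlations between arrays ran from 0.954 to 0.987, and control replicate 2 correlated less with the other controls than these did with each other (0.987). Over all probes tested 135 were higher and 160 lower with OPP at an unadjusted p under 0.05, fewer than the 380.55 that this threshold would pass with no difference.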

How the data were processed

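With BeadStudio 1.5.1.3 (per the submitters' processing notes) the authors averaged beads per probe to an intensity with a detection level (the complement of a detection p-value) and deposited these non-normalized intensities, which include background. They also deposited background-subtracted, scaled intensity values of the same arrays, used here as an alternative. Of 24048 probes, 19398 had 1 gene symbol in the platform annotation, 4650 none and 0 several.

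Following the methods, arrays were brought to one scale by rank-invariant probes and values under 10 were raised to 10, then log2 was taken. A total of 7611 probes whose mean detection level exceeded 0.99 (a detection p-value under 0.01 by the authors' deposited levels) in at least 1 group were compared with limma 3.58.1 in R 4.3.3, since the Illumina Custom error model of the methods needs bead-level errors. p-values were adjusted over all 7611 probes by the method of Benjamini and Hochberg. A probe not above background in either group was not tested. Fold changes of dim probes are understated because background stays in the intensities. The number of arrays (3 per group) limits the precision. For its p-values limma sets each difference against the spread between these brains, moderated over all probes tested. The fit was tested on simulated data.

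The members and lists were chosen with earlier results of these data known. All 8 members and 4 further annexins are named. Of the partner and prostaglandin lists the genes named are those at an unadjusted p under 0.05, the 3 largest changes of each, and *S100a10*, *S100a11*, *S100a6*, *Fpr1*, *Fpr2*, *Pla2g4a*, *Ptgs1* and *Ptgs2*. *Fpr1* and *Ptgs1* had no probe with that symbol. The 5 genes most like *Anxa2* are named too. The other partners, *Ptgis* and the marker genes were named after their values were seen. The brightest tested probe stands for a gene. Alternatives were other scalings, normexp, the authors' values, other filters and floors, a replicate block, array weights, an intensity trend, the methods' t-test and leaving out each brain.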

Additional observations from a re-analysis of the deposited data

How the results depend on the processing

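The log2 fold change of *Anxa2* stayed below 0 with an unadjusted p under 0.05 in all 18 alternatives run, and its adjusted p stayed over 0.05 in all of them. Several alternatives could not move this estimate. The other filters, a floor of 100, the replicate block, the intensity trend and the t-test left it at -0.62. The floor of 100 left its p from limma at 0.00393 as well. *Anxa3* stayed below 0 (-0.35 to -0.11). The count of annexin genes at an unadjusted p under 0.05 was 1 in each alternative. Choosing another probe was not run, since each annexin gene had 1. Labels and methods do not say whether same-numbered brains were paired, and the numbers were not treated as pairs. Correlations of same-numbered deviations from the group means were -0.27, 0.05 and 0.17. With so few brains per group these correlations cannot decide whether the brains were paired. With the replicate block *Anxa2* had a log2 fold change of -0.62, and 99 probes were higher.

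Over all probes, without scaling 147 were higher and 71 lower, and the median moved to 0.06. Without a detection filter 482 were higher and 499 lower, and with array weights 276 and 474. Leaving out 1 brain gave 81 (without control replicate 1) to 298 higher and 111 to 514 lower, the highest of both without control replicate 2. OPP replicate 3 was the other brain that lowered the higher count by over 1.5 times, to 85. At an adjusted p under 0.05 there were 2 probes with normexp, the authors' values, no filter or an intensity trend, 3 with array weights, 0 with probes detected on all 6 arrays or the methods' t-test, and 1 to 7 without 1 brain (7 without control replicate 2).

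The count of partners was 0 with probes detected on all 6 arrays, array weights or the methods' t-test, and 0 to 2 without 1 brain. It was 2 without control replicate 1, where *S100a6* passed at -0.73, and 0 without any one of the mice given OPP. *Fpr2* then was -0.94 to -1.07. The prostaglandin count was 0 to 1 without 1 brain, as *Ptgds* passed at -0.42 without OPP replicate 1 and was at -0.12 without OPP replicate 3. *S100a10* was at 0.058 without scaling and -0.16 to 0.11 without 1 brain, above 0 without control replicates 1 and 3 and OPP replicates 1 and 2. Without 1 brain *Anxa5* ranged from -0.26 to 0.032 (above 0 without control replicate 1), *Anxa6* from -0.051 (without control replicate 2) to 0.21, *Ptges3* from -0.046 (without OPP replicate 3) to 0.16 and *Ptges2* from -0.076 to 0.10, below 0 without control replicate 3 or OPP replicate 3. With array weights *Ptges2* was at -0.013. The cause of these shifts was not tested. Signal near background limits *Anxa1*, *Anxa4*, *Anxa7* and *Anxa11*.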
